A study of Mus musculus with 16 samples.

Results

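A set of 10 genes of the T cell lineage, out of 55423 rows of the count table, was followed through 2 sorted macrophage subsets of the mouse lymph node. Tcf7, Lef1, Bcl11b, Satb1, Ets1 and Ikzf3 encode transcription factors. Cd2, Cd5 and Cd28 encode surface receptors and Themis encodes a signalling adaptor. Rows were found by matching Ensembl identifiers to these symbols. Lef1, Ets1 and Cd2 were selected because their counts were lower in medullary sinus macrophages (MSMs) from tumor-draining than from non-draining nodes. Their values in any comparison that includes an MSM group are therefore a description without a test. The other 7 were added as genes of the same lineage, with earlier results of these data known, and all 10 passed the filter on low counts.

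RNA was sequenced from sub-capsular sinus macrophages (SSMs) and MSMs of male C57B/6 mice whose age is not given in the sources used here. Every mouse carried a flank tumor grown for 2 weeks from 500000 intradermally implanted MOC2 cells, a chemically induced squamous cell carcinoma line. Nodes of 2 mice were pooled, giving 2 tumor-draining lymph nodes (tdLNs) or 6 contralateral non-draining nodes (ndLNs) per pool, so that both kinds of node came from tumor-bearing animals. The ndLNs were inguinal, axillary and brachial, while the tumor was implanted near the inguinal node. In comparisons of nodes, drainage therefore cannot be told apart from the sites and the number of nodes pooled. The 4 groups were SSMs from ndLN, SSMs from tdLN, MSMs from ndLN and MSMs from tdLN, with 2 libraries each (pools 1 and 2). Cells were sorted as CD45+ CD11b+ CD169+ events that lacked CD3, B220 and Ly6G. SSMs were the CD11c- cells of low side scatter, and MSMs were the CD11c+ cells of high side scatter. Each library was sequenced on 2 lanes that agree within sampling noise and were counted as 1 sample, so n = 2 in every group. Libraries held 42972328 to 48130352 counts, and levels are given as CPM (counts scaled to a library total of 1000000), with pool 1 before pool 2. A floor of 3 counts corresponds to 0.0623 to 0.0698 CPM and covers counting error only.

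T cells are built by a small set of transcription factors that act in sequence in the thymus. TCF1, the product of Tcf7, and LEF1 are related DNA-binding proteins that recruit β-catenin or repressors of the TLE family and open T cell genes. Bcl11b fixes T cell commitment, Satb1 organizes chromatin, Ets1 acts at the enhancers of T cell receptor genes and Ikzf3 encodes Aiolos, a factor of the Ikaros family. Several of these factors are also used by innate lymphoid cells and natural killer (NK) cells, and some by dendritic cells. CD2 is an adhesion receptor that binds CD48 in the mouse, CD28 is the co-stimulatory receptor for CD80 and CD86, and CD5 restrains signals from the T cell receptor. Themis is an adaptor of that receptor's signalling in developing T cells. None of these genes is a classical marker of sinus macrophages.

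Promoter sequence was available for 6 of the 10 genes in RefSeq (GRCm38.p6), and 4 are shown because they stand for the patterns described below. The Tcf7 window was set aside because part of it reads as coding sequence, which leaves its listed start uncertain, and Satb1 is not shown. Lef1 had the largest difference between nodes in MSMs, Bcl11b followed the CD3 genes most closely, Cd5 did not separate the subsets, and Themis was the least abundant of the 10. Each sequence runs 5′ to 3′ on the strand of its gene and stops before the outermost annotated exon of that gene. Capitals mark a match to the ETS word GGAAGT on either strand.

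Lef1, chr3:131110047-131110296, plus strand: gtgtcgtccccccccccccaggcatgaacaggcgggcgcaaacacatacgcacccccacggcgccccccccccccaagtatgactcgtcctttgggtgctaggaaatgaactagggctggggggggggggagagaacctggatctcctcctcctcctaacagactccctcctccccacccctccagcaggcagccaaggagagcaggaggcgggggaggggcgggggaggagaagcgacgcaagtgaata
Bcl11b, chr12:108003603-108003664, minus strand: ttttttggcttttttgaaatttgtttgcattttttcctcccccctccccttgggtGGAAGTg
Cd5, chr19:10739003-10739224, minus strand: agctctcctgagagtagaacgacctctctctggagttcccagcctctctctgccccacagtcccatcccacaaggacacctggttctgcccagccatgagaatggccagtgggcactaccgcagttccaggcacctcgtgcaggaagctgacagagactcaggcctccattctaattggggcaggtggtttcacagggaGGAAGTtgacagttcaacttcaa
Themis, chr10:28668110-28668359, plus strand: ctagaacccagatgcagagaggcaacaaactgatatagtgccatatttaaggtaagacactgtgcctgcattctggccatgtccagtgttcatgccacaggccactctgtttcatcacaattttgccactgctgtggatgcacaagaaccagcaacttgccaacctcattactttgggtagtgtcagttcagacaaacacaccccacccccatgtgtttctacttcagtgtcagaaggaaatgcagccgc

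The 250 bases before the outermost start listed for each of the 5 genes other than Tcf7 were searched on both strands for the TCF/LEF word CTTTGAA and its variants (the word CTTTGAT, the word CTTTGTA or the word CTTTGTT), for the ETS word, for the GATA word AGATAA and for the RUNX word TGTGGT, which share no position in the matches found. The ETS word was present in Bcl11b and Cd5, and occurs in 19.7% of the 32851 promoters of this length. A TCF/LEF word was present in Bcl11b, in the stretch that is not shown, and occurs in 14.8% of promoters. GATA and RUNX words occur in 9.99% and 14.1% of promoters and were not found in these 5. The Lef1 window lies within an exon of the antisense gene Gm43352, which also covers 13.7% of the exon bases of Lef1. Gm43352 held 16 counts over all libraries against 8262 for Lef1, and whether counting used strand is not given in the sources used here.

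The sorted populations were first checked against marker genes. Siglec1, which encodes the CD169 used as a gate, was at 0.717 to 5.72 CPM in the 4 MSM libraries and at 9.75 to 67.7 CPM in the 4 SSM libraries. Csf1r, the receptor for macrophage colony-stimulating factor, was at 183 to 389 CPM in MSMs against 644 to 1824 CPM in SSMs. Of the 6 sinus macrophage markers, the comparison of subsets in ndLN called 3 higher in SSMs and Cd68 lower (log2 fold change -1.06, adjusted p = 0.00206, edgeR), at 239 and 155 CPM in SSMs and 347 and 315 CPM in MSMs. Of 5 conventional dendritic cell genes, 3 were called lower in the SSMs of ndLN and 5 in those of tdLN, with Xcr1 at 605 to 710 CPM in MSMs and 13.7 to 38.7 CPM in SSMs. Over all 21085 genes tested, 6.01% were called higher and 6.06% lower in SSMs in ndLN, and 5.16% and 3.52% in tdLN. Ccr7 and Zbtb46 overlapped between the subsets in ndLN. The labels are kept here as group names, although the MSM libraries held little Siglec1 and much Xcr1, Flt3 and Clec9a. Although CD3 was a negative gate, Cd3e was detected in every library, at 171 and 165 CPM in SSMs from ndLN, 72.5 and 85.0 CPM in SSMs from tdLN, 11.1 and 15.7 CPM in MSMs from ndLN and 2.93 and 2.02 CPM in MSMs from tdLN.

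Summed over 5 T cell markers, the level was 1078 to 1204 CPM in SSMs from ndLN, 507 to 602.5 in SSMs from tdLN, 93.0 to 128 in MSMs from ndLN and 12.6 to 26.8 in MSMs from tdLN. The same order of groups held for 6 gamma delta and innate-like T markers and for 5 NK markers. The 6 innate lymphoid markers summed to 2086 to 2719 CPM in SSMs from ndLN, 634 to 742.5 in SSMs from tdLN, 624 to 693 in MSMs from ndLN and 305 to 427 in MSMs from tdLN. Within that list, Il7r was at 681 and 871 CPM in SSMs from ndLN and at 22.3 to 37.2 CPM in MSMs. Kit of the same list made up most of the MSM sums, at 547 and 593 CPM in MSMs from ndLN against 383 and 554 CPM in SSMs from ndLN, and was lower in SSMs than in MSMs from tdLN (log2 fold change -2.25, adjusted p = 0.000634, edgeR). Mast cell and basophil markers were at 98.3 to 1256 CPM in SSMs and below 1 CPM in MSMs. B cell markers summed to 225 to 307 CPM in 6 libraries, and to 1329 and 325 CPM in MSMs from ndLN, where Ighm alone was at 1317 CPM in pool 1, while Pax5 did not exceed 0.561 CPM in any library. The 4 neutrophil markers summed to 69.5 to 429 CPM in SSMs and 7.03 to 27.7 CPM in MSMs. In tdLN, S100a8, S100a9 and Csf3r were called higher in SSMs than in MSMs, where 5.16% of all genes were. Ly6g, the product of which was a negative gate, was at 0 in all libraries except 1 at 0.607 CPM. The part of these cells in the levels of the 10 genes was not tested, and in sorted bulk samples fewer cells of a type and less RNA per cell cannot be told apart.

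**Figure D1:**
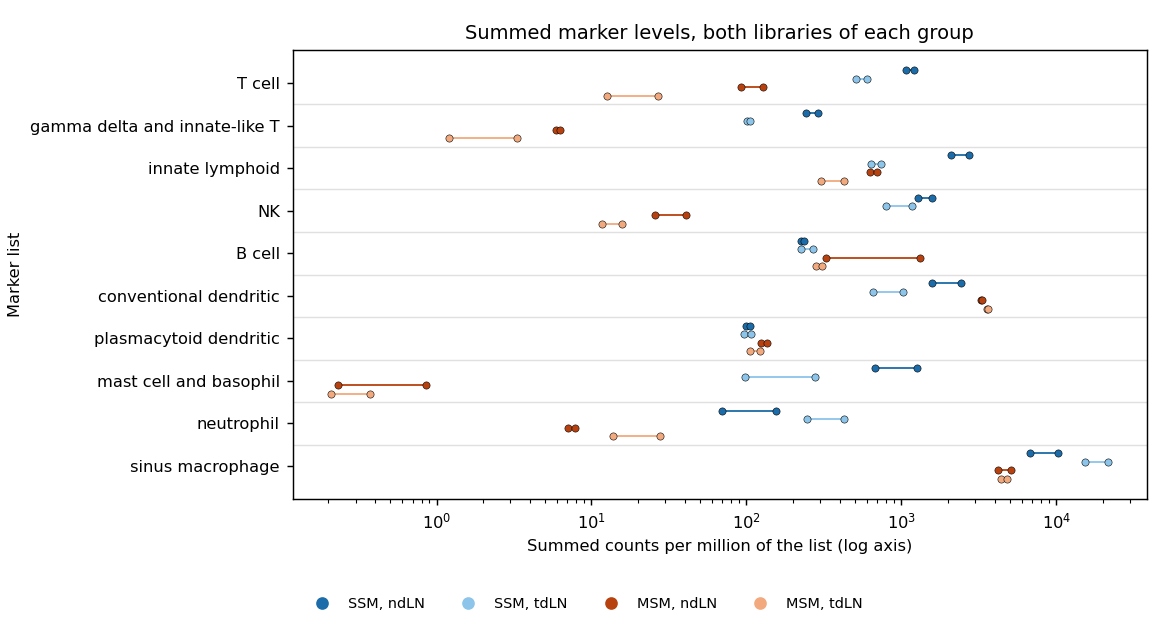
Summed CPM (log axis) of each marker list in the 4 groups, with 1 point for each of the 2 libraries joined by a line. T cell, gamma delta and NK lists are highest in SSMs from ndLN and lowest in MSMs from tdLN, whereas conventional dendritic markers are highest in MSMs.

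Tcf7 was the most abundant of the 10 genes per transcript length in every group. The gene lies at chr11:52252371-52283014 on the minus strand of mm10, the build of all positions given here. It was at 784 and 1045 CPM in SSMs from ndLN, 202 and 239.7 CPM in SSMs from tdLN, 54.0 and 82.4 CPM in MSMs from ndLN and 31.8 and 34.1 CPM in MSMs from tdLN. No group overlapped another, and the order was the same in both pools. The share of all genes that separate the groups in this way was not counted, for this gene or for those below. Lef1 (chr3:131110471-131224356, plus strand), its closest relative, was at 47.8 and 59.7 CPM in SSMs from ndLN and at 16.6 and 18.9 CPM in SSMs from tdLN. In MSMs it was at 17.0 and 19.6 CPM in ndLN and at 1.91 and 1.75 CPM in tdLN. SSMs from tdLN and MSMs from ndLN therefore overlapped for Lef1, while MSMs from tdLN stood apart from the other groups.

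Bcl11b (chr12:107910403-108003602, minus strand) was at 100.0 and 116 CPM in SSMs from ndLN, 50.4 and 53.1 CPM in SSMs from tdLN, 9.39 and 15.2 CPM in MSMs from ndLN and 2.39 and 1.52 CPM in MSMs from tdLN. Satb1 (chr17:51736187-51833290, minus strand) was at 658 and 766 CPM in SSMs from ndLN, 249 and 290.3 CPM in SSMs from tdLN, 55.4 and 73.5 CPM in MSMs from ndLN and 26.4 and 25.3 CPM in MSMs from tdLN. The 4 groups had the same order for both genes and did not overlap, a separation whose share among all genes was not counted. Ets1 (chr9:32636221-32757820, plus strand) was at 1062 and 1225 CPM in SSMs from ndLN and 404 and 443 CPM in SSMs from tdLN. Its level in MSMs was 52.0 and 78.0 CPM in ndLN and 10.6 CPM in both pools of tdLN. Ikzf3 (chr11:98464902-98546031, minus strand), at 433 and 605 CPM in SSMs from ndLN and 186 and 200.5 CPM in SSMs from tdLN, was at only 3.98 and 7.68 CPM in MSMs from ndLN and 1.88 and 2.51 CPM in MSMs from tdLN. The highest Ikzf3 value in MSMs, 7.68 CPM, lay far below the lowest in SSMs, 186 CPM.

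Among the receptors, Cd2 (chr3:101275899-101287939, minus strand) was at 216 and 219.6 CPM in SSMs from ndLN, 109 and 129 CPM in SSMs from tdLN, 26.1 and 34.6 CPM in MSMs from ndLN and 4.67 and 3.24 CPM in MSMs from tdLN. Cd28 (chr1:60716800-60773359, plus strand) was at 109 and 111 CPM in SSMs from ndLN, 45.6 and 58.1 CPM in SSMs from tdLN, 12.6 and 26.1 CPM in MSMs from ndLN and 3.37 and 3.22 CPM in MSMs from tdLN. Both followed the order of the transcription factors without overlap between groups. Cd5 (chr19:10717116-10739002, minus strand) was at 24.6 and 25.6 CPM in SSMs from ndLN, 11.7 and 11.3 CPM in SSMs from tdLN, 24.4 and 32.1 CPM in MSMs from ndLN and 12.5 and 14.7 CPM in MSMs from tdLN. Its levels separated the nodes and not the subsets, since the ndLN libraries of both subsets overlapped and the tdLN libraries of SSMs lay just below those of MSMs. Themis (chr10:28668360-28883818, plus strand) was at 15.1 and 17.0 CPM in SSMs from ndLN, 5.96 and 8.15 CPM in SSMs from tdLN, 2.43 and 5.64 CPM in MSMs from ndLN and 0.163 and 1.31 CPM in MSMs from tdLN. The lowest of these values rests on 7 counts.

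**Figure D2:**
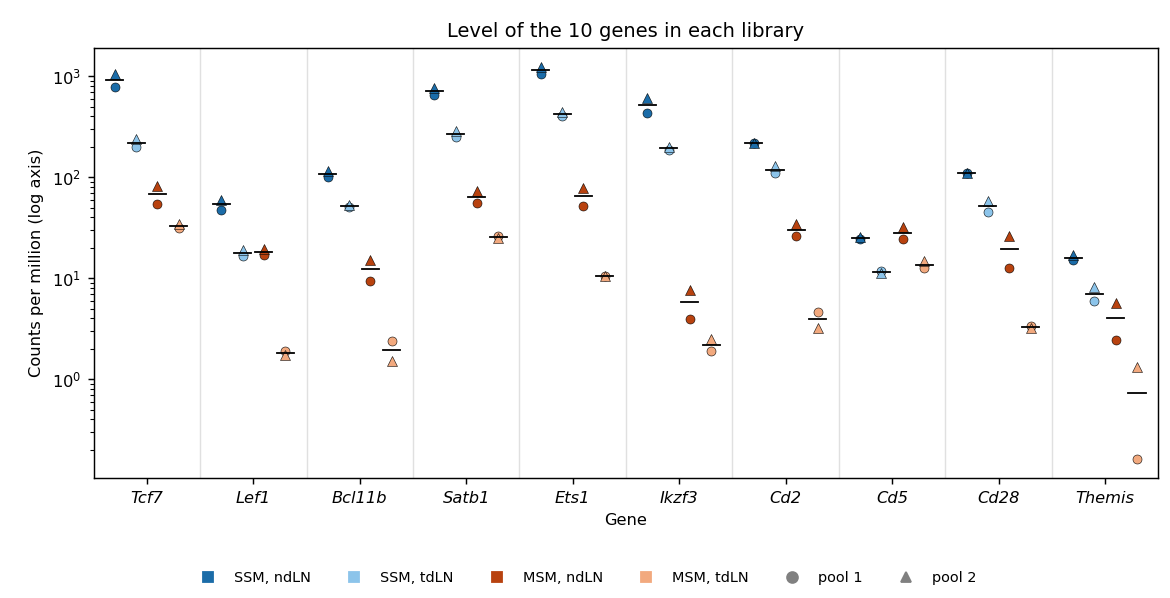
CPM (log axis) of each of the 10 genes in the 8 libraries, with circles for pool 1, triangles for pool 2 and a line at the mean of each group. The MSM libraries of a node lie below the SSM libraries of that node except for Cd5. Lef1, Ets1 and Cd2 were selected on MSM libraries, and the share of all genes separated in this way was not counted.

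Levels were compared between genes as TPM, which divide each count by exon length before scaling to the same total. In SSMs from ndLN the order was Tcf7 (mean 1101 TPM), Ets1 (425), Cd2 (393.5), Ikzf3 (187.5), Satb1 (118), Cd28 (56.5), Bcl11b (42.0), Lef1 (19.3), Cd5 (16.0) and Themis (4.32). Ets1 and Cd2 overlapped between pools there, as did Lef1 and Cd5. In SSMs from tdLN the same gene led, with Tcf7 at 241 TPM and Cd2 at 196 TPM, and no neighbours in the order overlapped. In MSMs from ndLN the order began with Tcf7 (75.7 TPM), Cd2 (50.8) and Ets1 (22.4), and Cd5 followed at 16.7 TPM, with overlap between Ets1 and Cd5. In MSMs from tdLN, Cd5 came next to Tcf7 in the order at 7.83 TPM, with Tcf7 at 35.6 TPM, and overlapped Cd2 at 6.48 TPM. Ikzf3, which lay above Satb1 in both groups of SSMs, lay above only Themis in MSMs from ndLN at 1.94 TPM and was at 0.711 TPM in MSMs from tdLN, overlapping Bcl11b. Themis was last in every group.

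The first question of the design was how SSMs differ from MSMs in the nodes that drain no tumor. SSMs held more RNA of 5 of the 7 tested genes, with Ikzf3 furthest apart, while over all 21085 genes tested 6.01% were called higher in SSMs and 6.06% lower. Ikzf3 was 73.4-fold higher in SSMs (log2 fold change 6.20, SE 0.23, adjusted p = 1.45e-05), and Tcf7 was 11.1-fold higher (3.47, SE 0.15, adjusted p = 1.63e-05). Satb1 was higher by 3.18 (SE 0.14, adjusted p = 1.79e-05), Bcl11b by 2.86 (SE 0.23, adjusted p = 0.000135) and Cd28 by 2.27 (SE 0.25, adjusted p = 0.000571). A gene was called at an adjusted p (edgeR quasi-likelihood test, Benjamini-Hochberg) under 0.01 and a mean normalized count per lane over 100. Only 9988 of the 21085 genes exceeded that count, while each of the 10 genes did, Themis being lowest at 148. The shares called over all genes, here and elsewhere, thus include genes that could not be called and would be higher among those that could. Themis, at a log2 fold change of 1.75 (SE 0.36), missed that threshold with an adjusted p of 0.0114. Cd5 had the opposite sign, at -0.45 (95% interval -0.89 to -0.01, adjusted p = 0.132). Of the 3 genes selected on MSMs, the log2 fold changes were 1.26 for Lef1, 3.86 for Ets1 and 2.56 for Cd2, given without a test. The median log2 fold change over the 7 tested genes was 2.86, beside 0.09 over all genes.

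In tdLN the same comparison gave 6 of 7 genes higher in SSMs, against 5.16% of all genes called higher and 3.52% lower. Ikzf3 was again furthest apart, 85.7-fold higher (log2 fold change 6.42, SE 0.25, adjusted p = 2.72e-05). Bcl11b was 25.8-fold higher (4.69, SE 0.29, adjusted p = 9.05e-05), Cd28 15.1-fold (3.92, SE 0.30, adjusted p = 0.000204) and Satb1 10.0-fold (3.33, SE 0.15, adjusted p = 3.48e-05). Tcf7 was 6.45-fold higher (2.69, SE 0.15, adjusted p = 6.58e-05). Themis also passed, at 3.18 (SE 0.54, adjusted p = 0.00607), but its call was lost when any 1 library was left out, and the value was 2.57 without pool 1 and 5.13 without pool 2 of the MSMs from tdLN. Cd5 was at -0.29 (95% interval -0.78 to 0.20, adjusted p = 0.427). Values without a test were 3.23 for Lef1, 5.27 for Ets1 and 4.86 for Cd2. The median over the 7 tested genes was 3.33, beside 0.02 over all genes. The T cell markers stood beside these values, at 507 to 602.5 summed CPM in SSMs and 12.6 to 26.8 in MSMs.

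**Figure D3:**
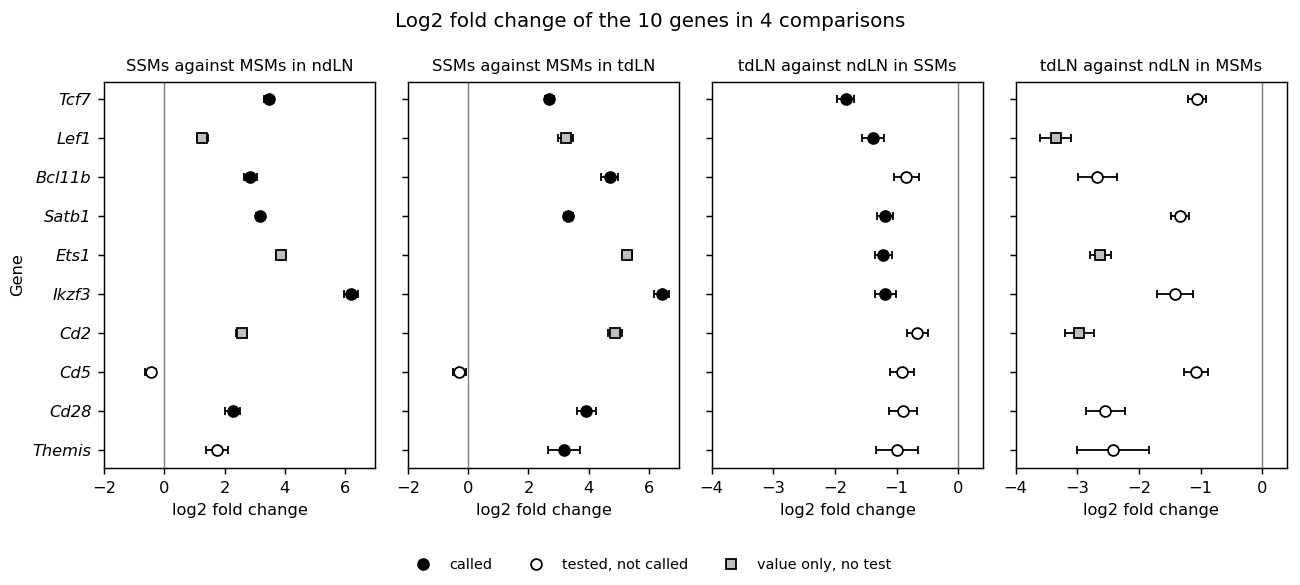
Log2 fold change with its standard error for the 10 genes in 4 comparisons, from 1 fit to all 8 libraries. Filled circles passed both thresholds, and open circles were tested and did not. Grey squares are the 3 selected genes, which have no test where an MSM group is compared. All values in both comparisons of nodes are negative, and Cd5 alone lies below 0 between subsets.

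The next question was how the SSMs of a draining node differ from those of a non-draining node. The rule that selected Lef1, Ets1 and Cd2 used no counts of these libraries, so all 10 were tested. All 10 were nevertheless chosen with earlier results of these data known, so no test here is free of that choice. The spread was also estimated from all 8 libraries, so the tests of Lef1, Ets1 and Cd2 are not independent of their selection on MSMs. With the SSM libraries alone, Lef1 was at -1.40 (adjusted p = 0.0308, edgeR) and Ets1 at -1.24 (adjusted p = 0.0282, edgeR). Of the 6 transcription factors, 5 fell in tdLN, while none of the 3 receptors and not Themis passed the thresholds. Over all genes, 1.05% were called lower in tdLN and 1.98% higher. Tcf7 had the largest change, 3.56-fold lower (log2 fold change -1.83, SE 0.14, adjusted p = 0.00116, edgeR). Between same-numbered libraries Tcf7 was lower by 3.89-fold in pool 1 and 4.36-fold in pool 2 in CPM. The labels do not state that a number marks the same mice in both kinds of node. Lef1 followed at -1.38 (SE 0.18, adjusted p = 0.00459), then Ets1 at -1.22 (SE 0.14, adjusted p = 0.00302), Satb1 at -1.19 (SE 0.13, adjusted p = 0.00263) and Ikzf3 at -1.19 (SE 0.17, adjusted p = 0.00689).

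The other 5 genes had values of the same sign in SSMs without passing. Bcl11b was at -0.85 (adjusted p = 0.0416), Cd5 at -0.92 (adjusted p = 0.0316) and Cd28 at -0.89 (adjusted p = 0.0524). Cd2 was at -0.67 (adjusted p = 0.0522) and Themis at -0.998 (adjusted p = 0.12). All 10 genes had an unadjusted p under 0.05, as did 23.0% of all genes, and their median was -1.09, beside -0.04 over all genes. Summed T cell markers were also lower in SSMs from tdLN, although 0 of these 5 markers were called by edgeR (median log2 fold change -0.81). Il7r (681 and 871 against 259 and 313 CPM) and Rora (687 and 921 against 202 and 239 CPM), both genes of innate lymphoid cells, were lower too. Kit and the mast cell gene Cpa3 fell as well (log2 fold changes -2.61 and -2.69, adjusted p = 0.00192 and 0.00893, edgeR). Mcpt8, of the same mast cell and basophil list as Cpa3, rose (3.06, adjusted p = 0.0047, edgeR). The sinus macrophage markers rose, from a sum of 6803 to 10290 CPM in ndLN to 15340 to 21530 CPM in tdLN. Of these markers 4 of 6 were called higher, among them Siglec1 (2.47) and Cd68 (1.68), against 1.98% of all genes. The part of these cells in the falls was not tested. The 5 calls depended on the libraries in the fit. None was made without either SSM library from tdLN, without pool 2 of the SSMs from ndLN, or with the SSM libraries alone, and only Tcf7 was called without pool 1 of the SSMs from ndLN. Tcf7 and Satb1 remained without either MSM library from tdLN, and these together with Ets1 without either from ndLN. In each of these fits all 10 log2 fold changes stayed below 0.

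In MSMs, tdLN and ndLN were compared in the same way, and this is the comparison that selected Lef1, Ets1 and Cd2. Only 4 genes were called lower (0.0190% of those tested) and 1 higher (0.00474%), the 4 being these 3 and Bpifa2 and the 1 being Spon1. Lef1 was 10.2-fold lower in tdLN (log2 fold change -3.35, SE 0.25), Cd2 7.82-fold (-2.97, SE 0.23) and Ets1 6.18-fold (-2.63, SE 0.16). Between same-numbered libraries, the Lef1 fold in CPM was 8.92 in pool 1 and 11.2 in pool 2, that of Cd2 5.59 and 10.7, and that of Ets1 4.92 and 7.35.

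None of the 7 other genes was called in MSMs by edgeR, although all 7 had an unadjusted p under 0.05 and the DESeq2 Wald test called all 7 lower. Over all genes these shares were 11.9% and 1.56%. Among the 7, Satb1 lay nearest to the threshold. Bcl11b had a log2 fold change of -2.68 (SE 0.32, adjusted p = 0.0255). Cd28 was at -2.55 (SE 0.32, adjusted p = 0.0296) and Themis at -2.42 (SE 0.59, adjusted p = 0.172). Ikzf3 was at -1.41 (SE 0.29, adjusted p = 0.123), Satb1 at -1.33 (SE 0.14, adjusted p = 0.0183), Cd5 at -1.08 (SE 0.20, adjusted p = 0.0875) and Tcf7 at -1.05 (SE 0.15, adjusted p = 0.0356). The 7 genes that the rule on MSMs did not select thus spread from -1.05 to -2.68. The T cell markers summed to 93.0 to 128 CPM in the ndLN libraries against 12.6 to 26.8 CPM in the tdLN libraries. The Themis value was -1.82 without pool 1 and -4.39 without pool 2 of the MSMs from tdLN.

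Whether the node effect differs between the subsets was tested as an interaction, taken as the log2 change in SSMs minus that in MSMs. None of the 7 tested genes was called by edgeR, while 3 had an unadjusted p under 0.05 and the DESeq2 Wald test called those 3, Tcf7, Bcl11b and Cd28. Over all genes, 0.0379% were called by edgeR in either direction, 12.3% had an unadjusted p under 0.05 and DESeq2 called 3.35%. Bcl11b had an interaction of 1.83 (95% interval 0.93 to 2.73, adjusted p = 0.0872) and Cd28 of 1.65 (95% interval 0.73 to 2.57, adjusted p = 0.125), where a positive value is a larger fall in MSMs. Tcf7 had the opposite sign, at -0.78 (95% interval -1.24 to -0.32, adjusted p = 0.146). Satb1 (0.14, 95% interval -0.30 to 0.59), Ikzf3 (0.22, -0.58 to 1.03), Cd5 (0.16, -0.50 to 0.82) and Themis (1.42, -0.22 to 3.07) had intervals that include 0. The Themis value was 0.83 without pool 1 and 3.39 without pool 2 of the MSMs from tdLN. The selected genes had values of 1.97 for Lef1, 2.30 for Cd2 and 1.41 for Ets1.

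Each gene was then set against the CD3 genes of the same library, as the ratio of its CPM to the summed CPM of Cd3d, Cd3e and Cd3g, which are restricted to T cells and a few related lymphocytes. The denominator was 502 and 551 CPM in SSMs from ndLN, 241 and 282 CPM in SSMs from tdLN, 40.9 and 53.7 CPM in MSMs from ndLN and 12.4 and 6.32 CPM in MSMs from tdLN. Bcl11b kept the narrowest ratio, between 0.188 and 0.283 in all 8 libraries. Cd2 lay between 0.378 and 0.644, Cd28 between 0.190 and 0.510 and Ets1 between 0.853 and 2.22. Themis ranged from 0.0132 to 0.207, both extremes being MSM libraries from tdLN.

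Other genes departed from the CD3 genes by subset. Cd5 was at most 0.0489 of the CD3 sum in the 4 SSM libraries and between 0.597 and 2.33 in the 4 MSM libraries. Ikzf3 went the other way, at 0.711 to 1.10 in SSMs and 0.0973 to 0.398 in MSMs. Lef1 was at 0.0671 to 0.108 in SSMs, 0.416 and 0.364 in MSMs from ndLN and 0.154 and 0.276 in MSMs from tdLN. These ranges did not overlap between subsets for any of the 3 genes, and how many of all genes have such a ratio was not counted.

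Several ratios also differed by node. In SSMs the Tcf7 ratio was 1.56 and 1.90 in ndLN and 0.838 and 0.850 in tdLN, a log2 difference of -1.03 (SD 0.14). In MSMs it was 1.32 and 1.53 in ndLN and 2.57 and 5.40 in tdLN, a log2 difference of 1.39 (SD 0.55). The ratio was thus lower in tdLN in SSMs and higher in tdLN in MSMs, in both pools. Satb1 behaved alike with smaller steps, from 1.31 and 1.39 to 1.04 and 1.03 in SSMs and from 1.36 and 1.37 to 2.14 and 4.01 in MSMs. The Ikzf3 ratio had the same signs, with log2 differences of -0.39 (SD 0.19) in SSMs and 1.06 (SD 0.75) in MSMs. That of Cd5 was higher in MSMs from tdLN by 1.36 (SD 0.60), with -0.11 (SD 0.15) in SSMs. These ratios are a description, since the denominator itself changed between groups and was at its lowest, 6.32 CPM, in pool 2 of the MSMs from tdLN.

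**Figure D4:**
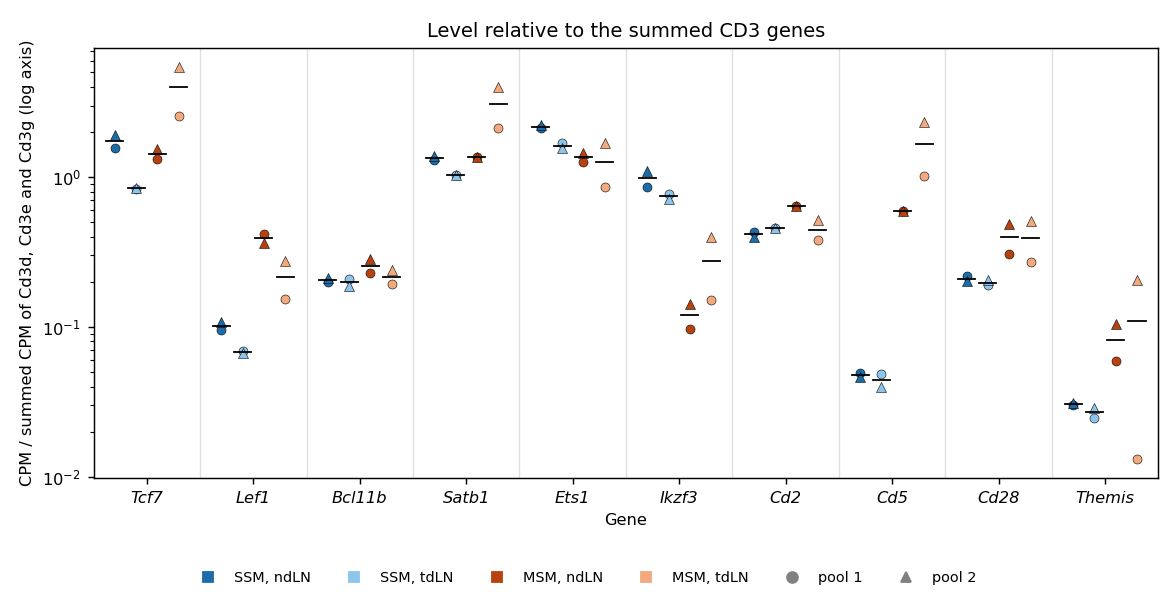
Ratio of each gene's CPM to the summed CPM of Cd3d, Cd3e and Cd3g (log axis) in the 8 libraries, with circles for pool 1, triangles for pool 2 and a line at the mean of each group. Bcl11b is nearly level across groups, Cd5 and Lef1 lie higher in MSMs, and Ikzf3 lies lower.

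Likeness of pattern was measured as Pearson's r of log2(CPM + 1) over the 8 libraries, which share their groups and cell mixture, among the 9988 genes over the mean count threshold. The genes nearest to Bcl11b were Cd27 (r = 0.9996), Cd3d (0.999), Zfp607a (0.998), Gimap6 (0.998) and Lat (0.998), of which Cd3d and Lat belong to the T cell receptor machinery. Ets1 was nearest to Lat (0.999), followed by Nlrc3, Cd3e, Sh2d2a and Cd3d (0.998 to 0.9975). Cd2 and Cd28 both had Cd3d (0.997 and 0.996), Zfp607a and Bcl11b among their nearest 5. Tcf7 was nearest to Pja1 (0.999), Stk39, Tnfsf8, Ankrd11 and Ptpn7, and Satb1 to Krt83 (0.999), Ercc1, Rnf125, Ccr4 and Rora (0.998). The nearest genes to Ikzf3 were Sytl3 (0.998), the T cell receptor segments Trbj1-1, Trgv2 and Trbv13-3, and Il18r1. Lef1 was nearest to Cd8b1 (0.981), Cd6 (0.978), Frat2, Slc3a2 and Mettl13, and Themis to Pde4d (0.984), Efl1, Eri3, Rlf and Sidt1. Cd5 had the loosest neighbours, Rel (0.974), Lsg1, Rps19bp1, Zdhhc2 and Rbbp6 (0.957). Among the 10 genes themselves, Bcl11b and Ets1 were closest at 0.997, Cd5 correlated with the others at 0.0323 to 0.549, and the lowest value between any pair without Cd5 was 0.804, for Lef1 and Ikzf3.

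A further 4 lists of related genes were read beside the 10. The T cell receptor complex and its proximal signalling genes numbered 18, all tested, of which 17 were higher in SSMs than in MSMs in ndLN and 1 was lower. In tdLN 16 were higher and 1 lower, with medians of 3.35 in ndLN and 4.85 in tdLN. Over all genes, 6.01% were called higher and 6.06% lower in ndLN, and 5.16% and 3.52% in tdLN. Zap70, the kinase that follows the receptor, was 5.91 higher in SSMs from tdLN (SE 0.23, adjusted p = 2.72e-05, edgeR), and the gamma chain gene Tcrg-C1 was 6.04 higher in SSMs from ndLN (SE 0.36, adjusted p = 4.29e-05). The exception was Cd8a, which is also carried by a class of dendritic cells, at 342 to 546 CPM in MSMs and 9.66 to 29.1 CPM in SSMs (log2 fold change -4.34 in ndLN and -5.11 in tdLN). Between nodes, 3 of the 18 were called lower in SSMs from tdLN, among them Cd4 (-2.56, adjusted p = 0.00265) and Cd8b1 (-1.37, adjusted p = 0.00975), with a median of -0.89. The share of all genes called lower there was 1.05%. None of the 18 was called in MSMs by edgeR, where 13 had an unadjusted p under 0.05, all of them lower in tdLN. DESeq2 called 12 lower in MSMs. Over all genes, 11.9% had such a p in either direction and DESeq2 called 1.56% lower.

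Of 24 other regulators of the T lineage, 11 were higher in SSMs than in MSMs in ndLN and 0 lower. In tdLN 12 were higher and 1 lower. Over all genes, 6.01% were called higher and 6.06% lower in ndLN, and 5.16% and 3.52% in tdLN. Eomes, a factor of NK and memory T cells, was 5.17 higher in ndLN (SE 0.32) and 5.66 higher in tdLN (SE 0.36) on the log2 scale. Id2, an inhibitor of E proteins that innate lymphoid and dendritic cells share, was lower in SSMs from tdLN (-1.37, SE 0.19, adjusted p = 0.00229). In SSMs 2 of the 24 fell in tdLN, Gata3 (-1.47, SE 0.15, adjusted p = 0.00241) and Tox (-1.47, SE 0.22, adjusted p = 0.00774). The share of all genes called lower there was 1.05%. In MSMs edgeR called 0 of the 24, with 9 at an unadjusted p under 0.05, and DESeq2 called 4 lower. Over all genes, 11.9% had such a p and DESeq2 called 1.56% lower. The number higher in SSMs from tdLN was 5 without either MSM library from tdLN and 6 without either SSM library from tdLN.

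The 21 partners of CD2, CD5 and CD28 were called in both directions. In ndLN 4 were higher in SSMs and 5 lower, and in tdLN 4 were higher and 3 lower. Over all genes, 6.01% were called higher and 6.06% lower in ndLN, and 5.16% and 3.52% in tdLN. Icos, an inducible relative of CD28, was at 1058 and 1214 CPM in SSMs from ndLN against 33.8 and 55.6 CPM in MSMs from ndLN (log2 fold change 4.40, SE 0.21, adjusted p = 2.12e-05). The CD28 ligands had the opposite direction in ndLN, with Cd86 at a log2 fold change of -3.12 (SE 0.14) and Cd80 at -1.76 (SE 0.18). In tdLN Cd80 overlapped between the subsets, at 88.0 and 89.1 CPM in SSMs and 107 and 87.5 CPM in MSMs. In SSMs from tdLN 4 partners rose, led by Slamf6 (1.60, SE 0.23, adjusted p = 0.00673) and Ptpn6 (1.36, SE 0.13, adjusted p = 0.00192), a phosphatase found in many leukocytes. The share of all genes called higher there was 1.98%. In MSMs edgeR called 0 of the 21, with 8 at an unadjusted p under 0.05, and DESeq2 called 1 higher and 6 lower, where 11.9% of all genes had such a p and DESeq2 called 0.830% higher and 1.56% lower. The count of 4 higher and 5 lower in ndLN was 1 and 2 without pool 1 of the MSMs from ndLN, 2 and 2 without pool 2 of either subset from ndLN, 2 and 4 without pool 1 of the SSMs from ndLN, and 4 and 2 without either SSM library from tdLN. In tdLN the 4 higher and 3 lower were 3 and 1 without pool 1 and 1 and 1 without pool 2 of the MSMs from tdLN, and 2 and 1 without pool 1 and 3 and 0 without pool 2 of the SSMs from tdLN. The 4 rises in SSMs were lost when any 1 SSM library was left out and numbered 1 without either MSM library from tdLN.

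Partners and targets of the TCF and LEF factors in the Wnt pathway came last. Of 14 tested, 2 were higher in SSMs from ndLN, Bcl9l (1.97, SE 0.34, adjusted p = 0.00471) and Myc (1.20, SE 0.15, adjusted p = 0.001), and Bcl9 was lower (-2.35, SE 0.31, adjusted p = 0.00141). In tdLN Myc was higher in SSMs (1.58, SE 0.15, adjusted p = 0.000485). Over all genes, the shares called were 6.01% higher and 6.06% lower in ndLN and 5.16% higher in tdLN. No gene of this list was called between nodes by edgeR, with 4 of 14 at an unadjusted p under 0.05 in SSMs and 2 in MSMs, against 23.0% and 11.9% of all genes, and DESeq2 called 1 lower in each, against 4.03% and 1.56%. Without either MSM library from ndLN, none of the 3 calls in ndLN was made, and the Myc call in tdLN was lost without pool 2 of either subset from tdLN. In SSMs from tdLN, 3 genes of the list of the T cell receptor complex and its signalling, among them Cd4 and Cd8b1, and 2 other regulators were called lower. All of these calls were lost when any 1 SSM library was left out, and part of them when any 1 MSM library was.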

How the data were processed

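RNA sequencing covered 16 samples, which are 8 libraries each run on lanes 3 and 4. The authors made SMART-Seq v4 libraries, aligned reads to mm10 and deposited raw counts per gene without normalization. The submitters' processing notes name STAR 2.5.3a, Trimmomatic 0.36 and bcl2fastq 2.20.0.422. The annotation, counting mode and strand setting are not given in the sources used here. Symbols, exon lengths and coordinates came from GENCODE M21 (GRCm38), which matched 55240 identifiers. The 2 rows that name no gene held 6 counts.

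Lanes were summed, since their chi-square per degree of freedom was 0.955 to 1.02, against 29.3 to 53.1 between libraries of a group. Genes with at least 10 counts in total and detection in at least 2 samples were kept. Group and pool were fitted to all 8 libraries in edgeR 4.0.16 (R 4.3.3) with TMM factors of 0.902 to 1.15, quasi-likelihood tests and Benjamini-Hochberg adjustment over 21085 genes, a fit tested on simulated data. Pool is in the model because the study's models hold it. The study describes each pool of mice as the source of both subsets from both kinds of node, and counts 4 pools where the labels number nodes 1 and 2 with 2 lanes each. That a number marks the same mice in tdLN and ndLN is not stated in the labels. Deviations of same-numbered libraries from their group means correlated at -0.150 to 0.164 over 10000 genes.

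The genes named are the 10, the marker genes, up to 2 called genes per direction with the largest change for each list and comparison, and the 5 genes nearest to each of the 10. Bpifa2 and Spon1 were chosen for naming once their values had been seen. The 10 genes and all 14 lists were chosen with earlier results of these data known. Alternatives were DESeq2 1.42.0, its size factors, no pool term, other filters and thresholds, single lanes, only the groups compared and each library left out.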

Additional observations from a re-analysis of the deposited data

How the results depend on the processing

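The 5 genes called between subsets in ndLN (Tcf7, Bcl11b, Satb1, Ikzf3 and Cd28) were called under all 16 alternatives fitted, as they were in tdLN. For nodes in SSMs, 5 genes were called; the DESeq2 Wald test called 8, a fit of only the groups compared 0, and fits with 1 library left out 0 to 3. For nodes in MSMs, 0 of 7 were called and the DESeq2 Wald test called 7. At an adjusted p under 0.05 in edgeR 4 passed (Tcf7, Bcl11b, Satb1 and Cd28), and the share of all genes at that threshold was not counted. For the interaction, 0 were called and DESeq2 called 3. DESeq2 called 3026 genes against 1832 between subsets in tdLN, 1973 against 639 between nodes in SSMs, 503 against 5 in MSMs and 706 against 8 in the interaction. Under the other alternatives that were counted over all genes, the counts ran from 0 to 15 in MSMs and from 0 to 19 in the interaction, where the size factors of DESeq2 gave 4 higher and 0 lower against 7 and 1. With only the groups compared, 1006 genes were called between subsets in ndLN against 2544, and 0 between nodes in SSMs. With 1 library left out, the counts were 1082 to 2021 and 507 to 1867 between subsets in ndLN and tdLN, and 2 to 345 between nodes in SSMs. The cause of these differences was not tested.

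Without the replicate block (the pool term), 5, 6, 5, 0 and 0 genes were called in the 5 comparisons, the same genes as with it. With 1 library left out, the interaction of Ikzf3 (0.22) ran from -0.12 to 0.47, below 0 without pool 2 of the MSMs from ndLN and at -0.06 without pool 1 of the SSMs from tdLN, and that of Cd5 (0.16) ran from -0.01, without the latter, to 0.31. Dividing by Cd3e alone moved 3 of 20 log2 ratio differences by over 1 SD. With a pseudocount of 0.1 in place of 1, fewer than 4 of the 5 nearest genes were kept for 5 of the 10. With 2 libraries per group, every test rests on little replication.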
